A study of Homo sapiens with 20 samples.

Results

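The 10 genes described here are 3 Notch receptors (NOTCH1, NOTCH2 and NOTCH3), 4 ligands (JAG1, JAG2, DLL1 and DLL3) and 3 transcription factors of the HES and HEY families (HES1, HES6 and HEY1). They were taken by gene name, and the estimated counts of their transcripts were summed per gene. Of the 10 genes, 9 were among the 27697 mRNAs and lncRNAs with at least 1 count in each condition, which were the genes tested. NOTCH1 was not tested.

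NGP cells, a line established from a human neuroblastoma, were profiled by RNA-seq in 2 conditions. In the first, 10 samples were treated with nutlin-3 at a dose of 8 µM (a racemic mixture). In the second, 10 samples received ethanol, the vehicle, and no nutlin-3. Nutlin-3 is a compound that occupies the pocket through which MDM2 binds its main substrate. All samples come from this one line, grown in 6-well format, and the treatment time is not given in the sources used here. The comparison asks which genes differ in abundance between nutlin-treated and vehicle-treated cells. The study's methods call the samples biological replicates, whereas the labels do not say whether they came from separate cultures. If they did not, p-values measure only the spread between these samples.

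Notch receptors are membrane proteins that are activated by ligands of the Jagged and Delta-like types on a neighbouring cell. After ligand binding the receptor is cut by ADAM proteases and then by gamma-secretase. The freed intracellular domain enters the nucleus, binds RBPJ and Mastermind-like proteins, and turns on target genes, of which the HES and HEY repressors are the best known. In the developing nervous system these repressors hold back proneural factors, which drive neuronal differentiation.

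The sum of estimated counts per sample ranged from 14455477 to 19532971 read pairs. Levels are given as CPM (counts per 1000000 counts of a library) after TMM normalization, which rescales each library by a factor. These factors were 0.879 to 0.973 in vehicle samples and 1.01 to 1.10 in nutlin samples, so they did not overlap between the conditions. As a check of the treatment, MDM2 had 245 ± 33.2 CPM in vehicle and 5564 ± 382 CPM in nutlin samples (mean ± SD, n = 10 each). Its log2 fold change (LFC) was 4.51 (SE 0.0703), with an edgeR quasi-likelihood adjusted p of 5.61e-29 over all genes. The response was broad. At a 5% false discovery rate (FDR) 58.8% of all genes were called, 32.3% higher and 26.5% lower after nutlin. Every LFC below is nutlin over vehicle, relative to the TMM scale. On this scale the median LFC of all genes was 0.19, and with library sizes alone it moved by 0.18. The higher genes made up 54.9% of all calls with TMM and 67.7% with library sizes alone. In bulk samples, fewer cells of a type and less RNA per cell cannot be told apart.

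The promoters of the 3 member genes with complete separation of the conditions, HES1, JAG1 and JAG2, are printed first, since RBPJ acts at such sequences. They are RefSeq sequences of GRCh38.p14, the 250 bases upstream of the gene start, 5′ to 3′ on the strand of the gene. The gene start is the one used for the promoter windows. For JAG2 it lies inside the gene span given further below, so the last printed bases of JAG2 fall within that span. Capitals mark exact matches on either strand to TGGGAA (the core of the RBPJ motif), CACGTG (the E-box) or CACNAG (the N-box, bound by HES proteins). The HES1 sequence is chr3:194135898-194136147 on the plus strand, that of JAG1 is chr20:10674000-10674249 on the minus strand, and that of JAG2 is chr14:105168777-105169026 on the minus strand.
HES1: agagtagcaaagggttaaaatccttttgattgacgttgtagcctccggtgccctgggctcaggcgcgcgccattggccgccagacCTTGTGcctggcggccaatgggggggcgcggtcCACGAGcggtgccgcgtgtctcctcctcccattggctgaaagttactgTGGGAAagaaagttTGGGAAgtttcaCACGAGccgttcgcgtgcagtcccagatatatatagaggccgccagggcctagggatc
JAG1: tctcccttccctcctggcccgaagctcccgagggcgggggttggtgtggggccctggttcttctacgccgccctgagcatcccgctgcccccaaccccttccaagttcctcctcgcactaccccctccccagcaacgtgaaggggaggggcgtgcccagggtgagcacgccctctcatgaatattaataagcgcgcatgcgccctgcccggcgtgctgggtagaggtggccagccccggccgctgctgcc
JAG2: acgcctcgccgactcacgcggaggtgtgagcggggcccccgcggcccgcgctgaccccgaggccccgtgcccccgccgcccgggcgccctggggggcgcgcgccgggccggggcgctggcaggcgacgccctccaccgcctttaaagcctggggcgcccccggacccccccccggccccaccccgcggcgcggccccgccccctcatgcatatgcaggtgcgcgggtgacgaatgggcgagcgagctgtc
The HES1 promoter held 2 TGGGAA matches, whose first bases lie at -84 and -70 from the gene start. It also held CACNAG matches at -165, -132 and -58, and a further one at 16, downstream of the printed bases. No TGGGAA match overlapped a CACNAG match. The JAG1 and JAG2 promoters held none of the 3 motifs.

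A promoter window of 300 bases (250 before and 50 after the start) was at hand for 7 of the 10 genes. The windows of NOTCH2 (chr1:120069613-120069912) and HES6 (chr2:238239989-238240288) lie wholly inside the gene spans given further below. DLL1, DLL3 and HEY1 were without one in the table used. TGGGAA was found in 1 of the 7 windows, that of HES1, and in 24.0% of all 35116 windows. CACNAG was found in 4 of the 7 windows (HES1, NOTCH1, NOTCH2 and NOTCH3) and in 38.0% of all windows. CACGTG was in 0 of the 7 and in 7.26% of all. A match is a string of letters and was not tested as a binding site.

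Of the 9 member genes tested, 6 were called higher after nutlin and 1 lower, and 2 were not called. The share called higher was 66.7%, beside 32.3% of all genes, and the share called lower was 11.1%, beside 26.5%. The median LFC was 0.37 for the 9 genes and 0.19 for all genes. With the filterByExpr filter, which leaves out genes with low counts and kept all 9, 13131 of 16347 genes were called, 51.5% of these higher. In that fit 7 members were called higher and 1 lower, and the median LFC of the 16347 genes was 0.034. For 3 of the 9 genes every nutlin sample lay above every vehicle sample, which held for 12.2% of all genes. For 0 of the 9 every nutlin sample lay below every vehicle sample, which held for 16.6% of all genes. The 6 rises were of unequal size, from 1.28-fold for HEY1 to 3.59-fold for HES1.

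**Figure D1:**
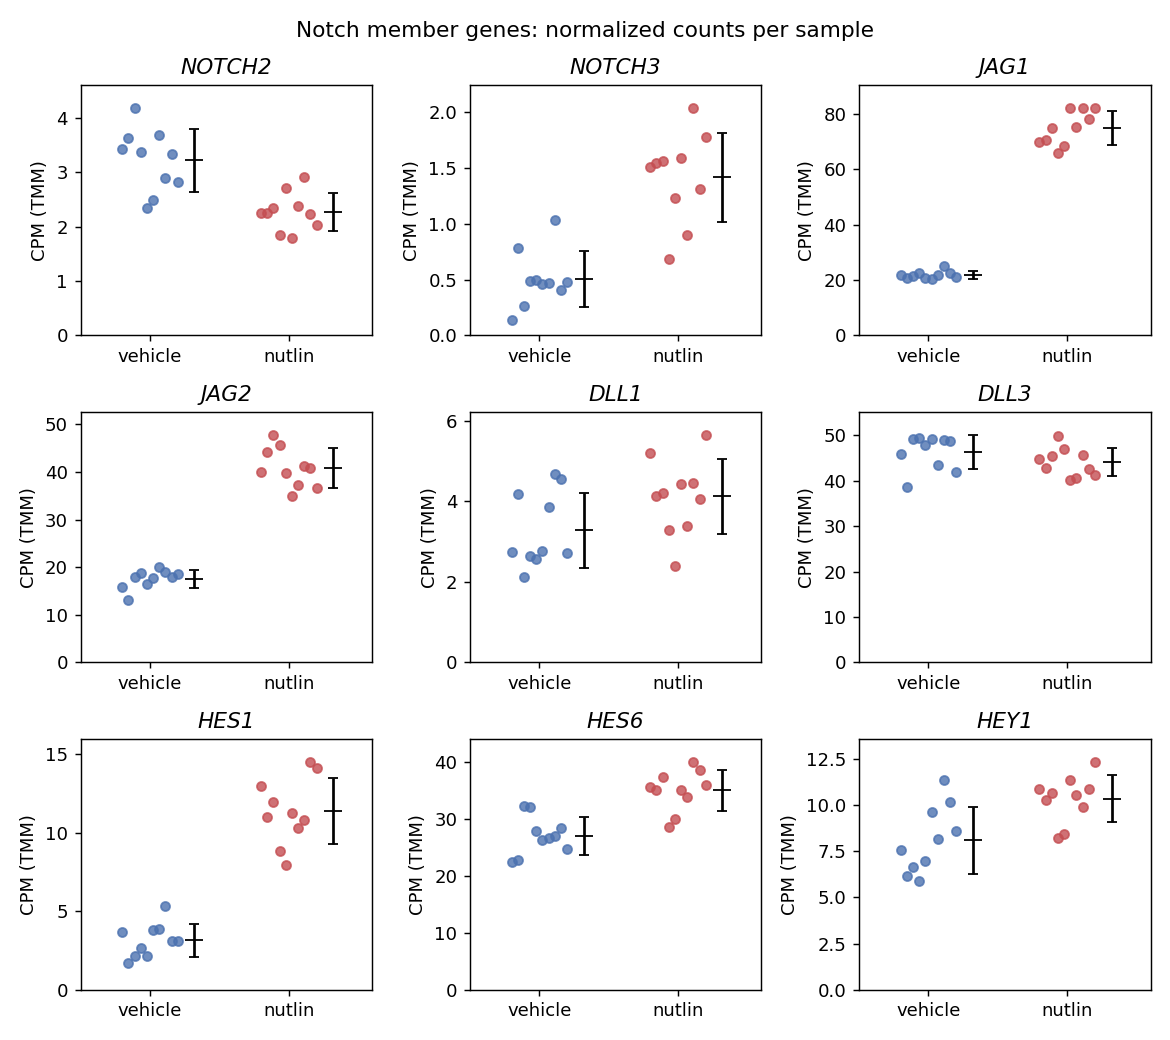
TMM-normalized CPM of the 9 member genes tested, in each of the 10 vehicle (blue) and 10 nutlin (red) samples. Each point is a sample, and the black bar beside the points gives the mean and SD. In JAG1, JAG2 and HES1 all nutlin points lie above all vehicle points, and in NOTCH2 7 of the 10 nutlin points lie below the lowest vehicle point.

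Among the receptors tested, NOTCH2 fell and NOTCH3 rose, while NOTCH1 could not be assessed. NOTCH2 (chr1:119911553-120100779, minus strand) had 2.35 to 4.19 CPM in vehicle samples, with a median of 3.35. In nutlin samples it had 1.79 to 2.90 CPM, with a median of 2.26. The ranges overlapped, with 7 of 10 nutlin samples below the lowest vehicle sample. The means were 3.21 ± 0.573 and 2.27 ± 0.347 CPM, or 1.41-fold lower after nutlin (LFC −0.49, SE 0.118, edgeR adjusted p = 0.000607). These values rest on 32.9 to 63 estimated counts per vehicle sample and 26.8 to 47 per nutlin sample. NOTCH2 shares sequence with its human-specific NOTCH2NL copies, so its counts are uncertain. Of these copies, NOTCH2NLA had a mean of 1.31 CPM in vehicle and 1.66 CPM in nutlin samples.

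NOTCH3 (chr19:15159038-15200995, minus strand) is a receptor best known from the muscle cells of blood vessels. It had 0.134 to 1.03 CPM in vehicle samples (median 0.474) and 0.684 to 2.04 CPM in nutlin samples (median 1.52). Of the nutlin samples 8 of 10 were above the highest vehicle sample, and nutlin replicates 4 and 8 were below it. The means were 0.502 ± 0.250 and 1.41 ± 0.400 CPM, a 2.81-fold rise (LFC 1.49, SE 0.237, edgeR adjusted p = 2.73e-06). With an offset for the effective length of its transcripts the LFC was smaller, 1.13 (edgeR adjusted p = 0.00162). Counts were few, from 2.40 to 14.6 per vehicle sample and from 10.4 to 32.6 per nutlin sample.

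For NOTCH1 (chr9:136494433-136546048, minus strand) the files listed 1 of the 16 transcripts of GENCODE release 44, a retained-intron transcript of 743 bases named NOTCH1-201. Its 5 protein-coding transcripts are not analysed here. NOTCH1-201 was at 0 counts in the 10 vehicle samples and above 0 in 3 of the 10 nutlin samples, with at most 5.50 counts. These counts do not measure NOTCH1 mRNA, and no level or fold is given. Transcripts of NOTCH1 may be among the 7862 listed transcripts that had no match to a gene, so NOTCH1 is to be read neither as absent nor as unchanged.

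Among the ligands, both Jagged genes rose with complete separation, and neither Delta-like gene was called. JAG1 (chr20:10637684-10673999, minus strand) encodes the Jagged-1 ligand. Its vehicle samples had 20.5 to 24.9 CPM, with a median of 21.6, and its nutlin samples had 66.0 to 82.2 CPM, with a median of 75.0. The lowest nutlin sample thus lay far above the highest vehicle sample. The means were 21.8 ± 1.36 and 74.9 ± 6.07 CPM, a 3.44-fold rise (LFC 1.78, SE 0.0475, edgeR adjusted p = 1.13e-23).

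JAG2 (chr14:105140982-105168824, minus strand), which encodes Jagged-2, had 13.1 to 20.1 CPM in vehicle samples (median 17.9). In nutlin samples it had 34.8 to 47.8 CPM (median 40.4), again with no overlap. The means were 17.5 ± 1.98 and 40.8 ± 4.12 CPM, a 2.32-fold rise (LFC 1.22, SE 0.0641, edgeR adjusted p = 2.09e-16).

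DLL1 (chr6:170282206-170306565, minus strand), a Delta-like ligand that activates Notch receptors, had 2.13 to 4.68 CPM in vehicle samples (median 2.76) and 2.41 to 5.65 CPM in nutlin samples (median 4.16). The groups overlapped widely, although 9 of 10 nutlin samples were above the vehicle median. The means were 3.28 ± 0.935 and 4.12 ± 0.936 CPM (LFC 0.34, SE 0.149), and the edgeR adjusted p of 0.0545 was just above the threshold. The edgeR adjusted p fell under the threshold when any of vehicle replicates 4, 9, 10 and 11 or nutlin replicates 4, 6 and 8 was left out, and was 0.0119 to 0.118 over all 20 such fits. DLL1 overlaps FAM120B on the opposite strand, which had means of 39.0 and 42.4 CPM. The libraries were stranded, but the strand setting of the quantification is not given in the sources used here.

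DLL3 (chr19:39498895-39508481, plus strand), a divergent ligand that is found mainly inside the cell and inhibits Notch signalling, had 38.6 to 49.4 CPM in vehicle samples (median 48.3). In nutlin samples it had 40.1 to 49.9 CPM (median 43.8). The ranges nearly coincided. The means were 46.3 ± 3.77 and 44.0 ± 3.08 CPM, with an LFC of −0.07 (SE 0.0479) and an edgeR adjusted p of 0.197. The sign depended on the scaling: with library sizes alone the LFC was 0.12 (edgeR adjusted p = 0.0282), and with the filterByExpr filter it was 0.00396 (edgeR adjusted p = 0.94). No direction is therefore given for DLL3.

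All 3 HES/HEY genes rose, HES1 by an LFC of 1.84 and HES6 and HEY1 by 0.37 and 0.35. HES1 (chr3:194136148-194138732, plus strand) encodes a repressor that is a direct target of Notch in many tissues. It had 1.70 to 5.30 CPM in vehicle samples (median 3.11) and 7.96 to 14.5 CPM in nutlin samples (median 11.1). Every nutlin sample lay above every vehicle sample. The means were 3.15 ± 1.07 and 11.4 ± 2.11 CPM, a 3.59-fold rise (LFC 1.84, SE 0.142, edgeR adjusted p = 1.61e-12). They rest on 24 to 77 counts per vehicle sample and 129 to 221 per nutlin sample.

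HES6 (chr2:238238267-238240662, minus strand) encodes an atypical family member that counters HES1 and favours neuronal differentiation. It had 22.4 to 32.2 CPM in vehicle samples (median 26.7) and 28.5 to 39.9 CPM in nutlin samples (median 35.3). Of the nutlin samples 8 of 10 exceeded the highest vehicle sample. The means were 27.0 ± 3.33 and 34.9 ± 3.52 CPM, a 1.29-fold rise (LFC 0.37, SE 0.0654, edgeR adjusted p = 1.26e-05). An lncRNA gene on the opposite strand, ENSG00000225057, overlaps HES6 and had means of 0.202 and 0.951 CPM.

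HEY1 (chr8:79762371-79767857, minus strand), a Hairy-related repressor downstream of Notch, had 5.87 to 11.4 CPM in vehicle samples (median 7.88). In nutlin samples it had 8.21 to 12.3 CPM (median 10.6). The groups overlapped, with 2 of 10 nutlin samples above the highest vehicle sample and all 10 above the vehicle median. The means were 8.12 ± 1.82 and 10.4 ± 1.26 CPM, a 1.28-fold rise (LFC 0.35, SE 0.102, edgeR adjusted p = 0.00367).

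**Figure D2:**
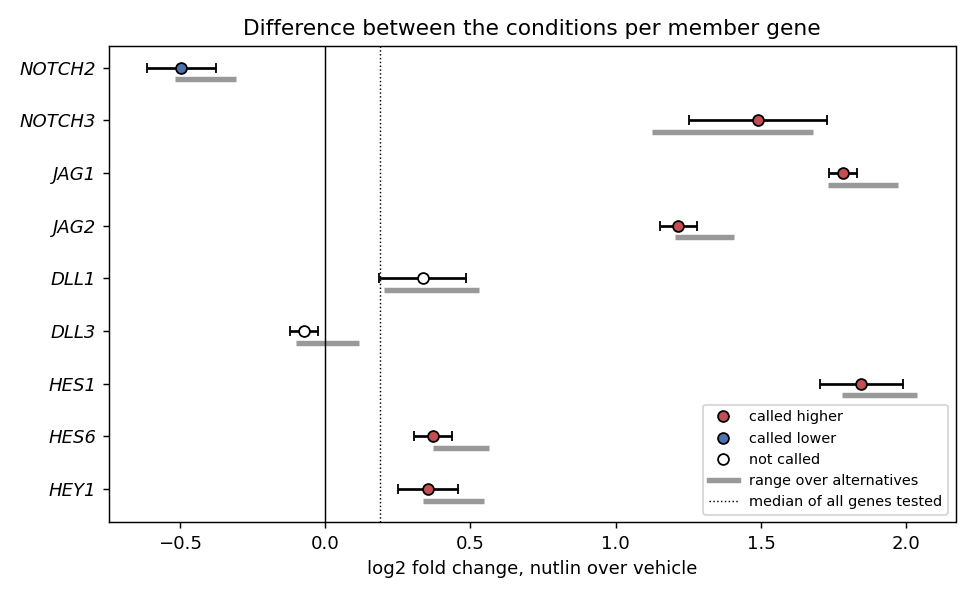
LFC (log2 scale, nutlin over vehicle) of the 9 member genes tested. Points give the main estimate with its SE, the grey bars give the range over the alternative settings, and the dotted line is the median of all genes tested (0.19). JAG1 and HES1 lie furthest to the right, NOTCH2 is the gene called lower, and the grey bar of DLL3 crosses 0.

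Levels were compared between genes per transcript length, as TPM, the estimated counts scaled by effective length and library size. In vehicle samples DLL3 was highest with 27.7 ± 2.04 TPM and HES6 next with 23.8 ± 2.35 TPM, and their ranges overlapped. A gap separated them from JAG2 (6.70 ± 1.30 TPM), JAG1 (5.23 ± 0.537 TPM) and HEY1 (4.59 ± 1.19 TPM), which overlapped as neighbours. HES1 had 2.38 ± 0.815 TPM and DLL1 1.43 ± 0.541 TPM. The 2 receptors tested stood at the foot of the order, with NOTCH3 at 0.524 ± 0.266 TPM and NOTCH2 at 0.405 ± 0.154 TPM. NOTCH1 has no place in this order, and NOTCH2 rests on 1 of its 4 protein-coding transcripts. A count on a short transcript adds more TPM than one on a long transcript. In vehicle samples NOTCH3-205 (retained intron, 748 bases) had a mean of 4.10 counts and NOTCH3-201 (protein-coding, 8666 bases) 3.05. Retained-intron transcripts held a mean of 33.7% of JAG2 counts and 2.92% of JAG1 counts there. The places of NOTCH3 and JAG2, in both conditions, are thus those of gene sums and not of mRNA alone.

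In nutlin samples HES6 came first with 31.0 ± 3.64 TPM and DLL3 second with 25.9 ± 1.74 TPM, again with overlapping ranges. JAG1 (17.4 ± 1.47 TPM) and JAG2 (15.5 ± 2.72 TPM) followed, and the range of JAG1 did not reach that of DLL3. HES1 had 8.67 ± 1.80 TPM and HEY1 6.57 ± 1.02 TPM. DLL1 (1.91 ± 0.443 TPM) and NOTCH3 (1.14 ± 0.427 TPM) overlapped, and NOTCH2 was lowest at 0.280 ± 0.0973 TPM. In vehicle samples each neighbouring pair from JAG2 down to NOTCH2 overlapped. In nutlin samples HEY1 and DLL1 did not overlap, nor did NOTCH3 and NOTCH2, and the other neighbours below JAG1 did.

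**Figure D3:**
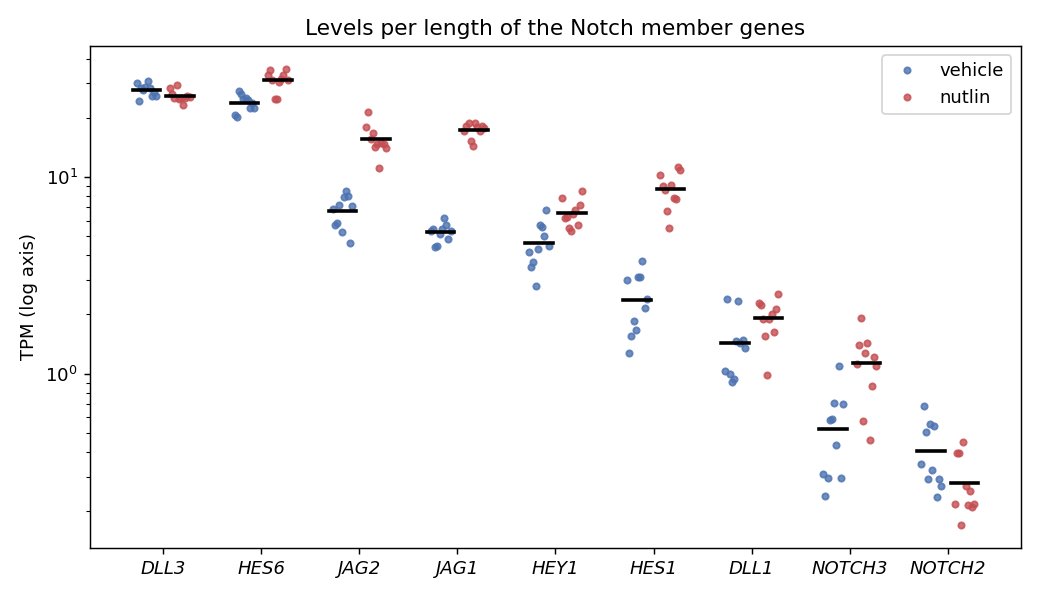
TPM of the 9 member genes tested, on a log axis, in vehicle (blue) and nutlin (red) samples, ordered by the vehicle mean. Each point is a sample and black lines are means. DLL3 and HES6 are highest in both conditions and NOTCH2 and NOTCH3 lowest, and JAG1, JAG2 and HES1 shift upward after nutlin.

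The transcripts behind these sums were also tested. The files held 51 transcripts of the 10 genes, of which 41 had at least 1 count in each condition. Calls were made for 22.5% of all 132618 transcripts. Of the 41 member transcripts 13 were called higher, beside 12.1% of all transcripts, and 1 was called lower, beside 10.4% of all. The number called higher was 8 with the filterByExpr filter, and it was 8, with 0 lower, in the 16 samples whose replicate number occurs in both conditions. kallisto divides reads among transcripts that overlap, and the files give no uncertainty for that division. Of the 14 retained-intron transcripts tested, 7 were called higher, all of them from JAG1, JAG2 and HES1, which rose as whole genes. The share over all retained-intron transcripts is not given here. Of GENCODE's transcripts, the files held 5 of 11 for NOTCH2 (1 of its 4 protein-coding ones) and 7 of 14 for HEY1, and all of those of the other 7 genes tested.

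For the Jagged genes and HES1, the main protein-coding transcript held most of the counts and rose. JAG1-201 held 89.7% of the gene's counts in vehicle and 84.5% in nutlin samples, with an LFC of 1.69 (SE 0.0668, edgeR adjusted p = 5.31e-15). JAG1-202, which has no defined coding sequence, held 6.94% and 12.7% and also rose (LFC 2.61, edgeR adjusted p = 0.00157). JAG2-201 held 58.2% and 58.0% (LFC 1.19, edgeR adjusted p = 9.06e-08). The retained-intron transcript JAG2-203 held 25.8% and 23.5% of the JAG2 counts and rose by a like amount (LFC 1.09, edgeR adjusted p = 3.08e-06). HES1-201 held 95.2% and 92.7% of its gene (LFC 1.80, edgeR adjusted p = 2.59e-08).

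In the receptors, NOTCH2-201 held 98.8% and 99.1% of the NOTCH2 counts and was the 1 transcript called lower (LFC −0.50, edgeR adjusted p = 0.00961), a call that was lost in those 16 samples (edgeR adjusted p = 0.0605). NOTCH3-201, the protein-coding transcript of 8666 bases, held 40.1% of the NOTCH3 counts in vehicle and 59.5% in nutlin samples and rose (LFC 1.97, SE 0.517, edgeR adjusted p = 0.0067). This call was lost in the 16 samples too (edgeR adjusted p = 0.0509). Its short retained-intron transcript NOTCH3-205, of 748 bases, held 54.0% and 32.1% and was not called (LFC 0.74, edgeR adjusted p = 0.161). The mean share of retained-intron counts in NOTCH3 was 58.3 ± 23.8% per vehicle sample and 33.8 ± 11.2% per nutlin sample, on few counts. In JAG2 this share was 33.7 ± 6.60% and 32.3 ± 5.64%, and in DLL3 it was 20.7 ± 4.12% and 18.0 ± 3.14%.

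No single transcript of HES6, HEY1, DLL1 or DLL3 was called, apart from HES6-205 with the filterByExpr filter (edgeR adjusted p = 0.0395), named after its value was seen. HES6 and HEY1 were thus called as genes while none of their transcripts was in the main comparison of all 20 samples. HES6-203 held 58.5% of its counts in vehicle and 48.0% in nutlin samples (LFC 0.08, edgeR adjusted p = 0.748). HES6-201 held 21.5% and 36.4% (LFC 1.11, SE 0.559, edgeR adjusted p = 0.179), and its estimated counts ran from 0.0184 to 161 among vehicle samples. In HEY1, HEY1-202 held 83.7% and 76.9% (LFC 0.24, edgeR adjusted p = 0.346), and HEY1-201 held 11.2% and 11.4%. DLL1-201 held 96.0% and 94.7% of DLL1. In DLL3, DLL3-202 held 51.9% and 56.0%, DLL3-201 27.4% and 25.8%, and the retained-intron transcript DLL3-204 20.5% and 17.9%.

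**Figure D4:**
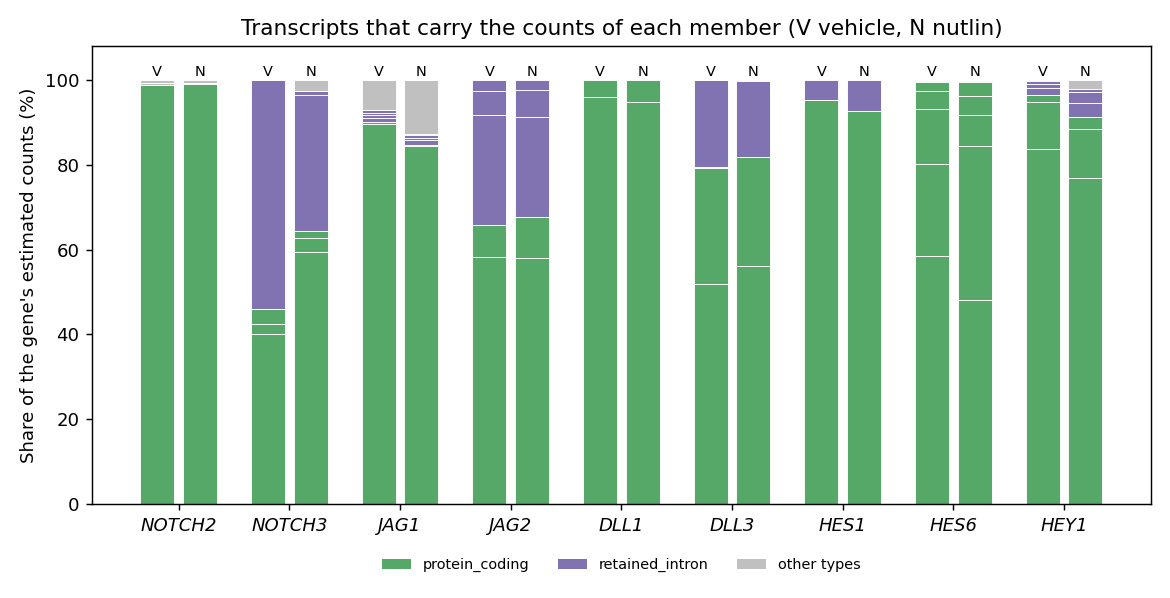
Share (%) of each member gene's estimated counts carried by each transcript, in vehicle (V) and nutlin (N) samples, with counts summed over the 10 samples of a condition. Green segments are protein_coding transcripts, purple segments retained_intron and grey segments other types. NOTCH3 has the largest retained-intron share, 54.0% of its counts from NOTCH3-205 in vehicle samples.

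The member genes were set beside 77 other genes of the pathway, in lists by role. Of these, 73 were tested, and HES5, HELT, NEUROG1 and NEUROD4 were not. Of the 73, 28 were called higher (32.3% of all genes were) and 30 lower (26.5% of all genes), and 15 were not called. Which direction was more frequent turned with the scaling, since 32 were higher and 26 lower with DESeq2 size factors and 35 and 21 with library sizes alone. Their median LFC was 0.05, beside 0.19 for all genes. In the fit with the filterByExpr filter, which leaves out genes with low counts, the median LFC of all genes was 0.034. The counts of each list below are to be read beside the same shares of all genes, 32.3% higher and 26.5% lower. No list was tested as a set. In each list up to 3 genes with the largest LFC and at least 1 CPM are given with values, and any further genes were named after their values were seen.

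Of 7 other receptor and ligand genes, 2 rose, 2 fell and 3 were not called. DLK1, an atypical ligand-like protein, rose from 42.2 ± 4.88 to 103 ± 8.19 CPM (LFC 1.28). MFAP2, a matrix protein that can bind Jagged-1, fell from 61.3 ± 4.97 to 28.5 ± 3.74 CPM (LFC −1.10). The receptor NOTCH4 fell from 6.14 ± 0.642 to 4.21 ± 0.870 CPM (LFC −0.55). DLL4 was called higher at a very low level, 0.0745 against 0.402 CPM.

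Of the 7 other HES/HEY genes and targets tested, 4 were called higher (32.3% of all genes were) and 1 lower, with a median LFC of 0.86. HES3 and HEY2 were not called. HEYL, a HEY relative, rose from 3.86 ± 0.405 to 6.99 ± 1.11 CPM (LFC 0.86, edgeR adjusted p = 2.79e-09), and its groups did not overlap. The others called higher, HES2, HES4 and HES7, had at most 1.16 CPM on average in either condition. NRARP, a Notch target that limits the signal, had 6.98 ± 1.07 and 5.99 ± 0.857 CPM (LFC −0.22, edgeR adjusted p = 0.045). That call was lost with DESeq2 size factors (edgeR adjusted p = 0.119) and with library sizes alone (edgeR adjusted p = 0.816).

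Among the 9 genes of receptor processing and gamma-secretase, 3 rose and 5 fell, whereas with library sizes alone 5 rose and 3 fell. APH1A, a gamma-secretase subunit, fell from 271 ± 17.2 to 129 ± 6.74 CPM (LFC −1.08), and its relative APH1B fell from 3.01 ± 0.488 to 1.73 ± 0.509 CPM (LFC −0.80). FURIN, the convertase that cuts Notch before it reaches the surface, rose from 11.6 ± 1.50 to 18.8 ± 1.44 CPM (LFC 0.70). The receptor-modifying enzymes were split, with 2 of 5 higher and 2 lower. RFNG, a Fringe glycosyltransferase, rose from 34.6 ± 3.38 to 78.1 ± 4.54 CPM (LFC 1.17), and LFNG, another Fringe, fell from 11.05 ± 1.15 to 6.44 ± 1.56 CPM (LFC −0.77). POGLUT1, which adds O-glucose to Notch, rose from 34.5 ± 1.44 to 52.5 ± 1.69 CPM (LFC 0.61).

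In the nuclear complex 3 of 9 genes rose and 5 fell, and with library sizes alone 3 rose and 2 fell. The acetyltransferase gene KAT2B rose from 3.92 ± 0.744 to 9.81 ± 0.817 CPM (LFC 1.32) and KAT2A from 78.3 ± 5.63 to 106 ± 6.82 CPM (LFC 0.43). SNW1, a cofactor of RBPJ, fell from 96.9 ± 8.26 to 66.2 ± 3.35 CPM (LFC −0.55). RBPJ itself, named here as the DNA-binding partner of Notch, had 118 ± 14.8 and 104 ± 6.31 CPM (LFC −0.19, edgeR adjusted p = 0.00523), and with library sizes alone its LFC was 0.00126. Of 12 co-repressor genes 3 rose and 6 fell, and with library sizes alone 5 rose and 5 fell. The deacetylase genes HDAC2 and HDAC1 fell from 461 ± 21.6 to 223 ± 9.64 CPM (LFC −1.05) and from 127 ± 7.29 to 70.5 ± 3.80 CPM (LFC −0.84). TLE2, a Groucho-type co-repressor, rose from 0.369 ± 0.203 to 2.99 ± 1.11 CPM (LFC 2.98), without overlap.

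For ligand endocytosis, which ligand-bearing cells need to activate Notch, 2 of 4 genes rose and 1 fell. The ubiquitin ligase gene MIB2 rose from 30.8 ± 2.94 to 74.2 ± 4.81 CPM (LFC 1.27), whereas NEURL1B fell from 67.5 ± 4.64 to 33.7 ± 4.01 CPM (LFC −1.0). NEURL1 had 11.3 ± 1.04 and 12.8 ± 1.63 CPM and was called higher (LFC 0.18, edgeR adjusted p = 0.0267). Of 11 genes of receptor turnover and inhibition 3 rose and 5 fell. FBXW7, which marks the Notch intracellular domain for degradation, rose from 24.0 ± 3.42 to 44.7 ± 3.79 CPM (LFC 0.90). AAK1, a kinase of endocytosis, rose from 40.1 ± 3.81 to 58.2 ± 3.28 CPM (LFC 0.54), and DTX1, a Deltex ubiquitin ligase, fell from 20.6 ± 2.30 to 14.7 ± 1.01 CPM (LFC −0.49).

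Of the 9 proneural and partner genes tested, 6 rose and 3 fell, where 32.3% of all genes rose and 26.5% fell. All 4 ID genes, whose products bind the partners of proneural factors, were among those that rose. ID3 rose from 168 ± 26.2 to 436 ± 28.3 CPM (LFC 1.38) and ID4 from 13.5 ± 3.05 to 24.6 ± 5.68 CPM (LFC 0.85). NEUROD1, a neuronal differentiation factor, fell from 7.02 ± 0.779 to 3.16 ± 0.658 CPM (LFC −1.15).

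**Figure D5:**
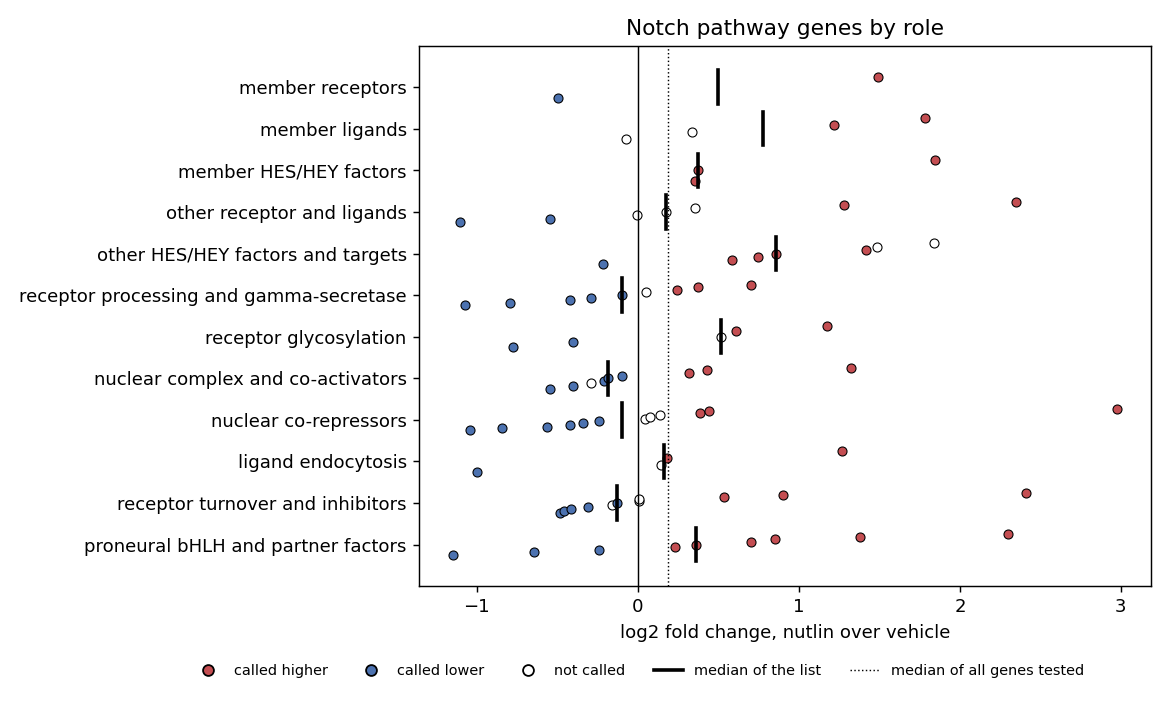
LFC (log2 scale, nutlin over vehicle) of the 9 member genes and the 73 other pathway genes tested, 1 point per gene, in rows by role. Red points were called higher, blue points lower and open points not called at 5% FDR. Thick bars are list medians and the dotted line is the median of all genes (0.19), and most lists have genes on both sides of 0.

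The cell identity of the samples was checked with marker lists, whose part in the results was not tested. The summed TPM of 7 adrenergic neuroblastoma markers was 1613 to 1961 in vehicle and 1513 to 2037 in nutlin samples, led by HAND2 and TH. HAND2 had an LFC of −0.24, which was not called with library sizes alone, and TH rose (LFC 0.62). The sum of 8 mesenchymal markers was lower after nutlin, at 460 to 624.8 TPM against 758 to 873 TPM, and its leading genes VIM (LFC −0.57) and TWIST1 (LFC −0.93) fell, although 4 of the 8 genes rose and 3 fell. Endothelial markers (4 genes, led by PECAM1 and KDR) summed to 0.116 to 0.610 and 0.286 to 1.12 TPM. Immune markers (4 genes, led by PTPRC and CD68) summed to 0.389 to 1.67 and 2.96 to 6.56 TPM, and CD3E was at 0 in all samples.

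The member genes also varied among samples of one condition. Over 20 samples, with each log2 CPM taken as its deviation from the mean of its condition, 36 pairs of member genes had Pearson's r from −0.35 to 0.82, with a median of 0.15. The highest was that of HES1 with HEY1 (r = 0.818, permutation p = 0.00012, adjusted p = 0.00432 over the 36 pairs; Spearman's rho = 0.765, permutation p = 0.00061, adjusted p = 0.022). These two-sided permutation tests exchanged samples within a condition. The pair had r = 0.801 among vehicle and 0.869 among nutlin samples, and r = 0.800 without the 2 samples farthest from the median of HEY1. The values of a pair come from the same libraries, so shared errors of a library add to r. Of the 36 pairs, 10 had an unadjusted permutation p of r under the threshold and 1 an adjusted p under it.

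Vehicle replicate 10, which had the lowest TMM factor (0.879), was the highest of the 10 vehicle samples in 5 of the 9 genes (NOTCH3, JAG1, DLL1, HES1 and HEY1). Nutlin replicate 4 was the lowest nutlin sample in 4 of the 9. Over the 20 samples the deviation of the TMM factor had r from −0.38 (DLL3) to 0.19 (HES1) with the member genes, as a description. Leaving out vehicle replicate 10 gave 7 member genes called higher instead of 6, with DLL1 the gene added (edgeR adjusted p = 0.0145).

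For the gene tested of each role with the highest mean CPM over both conditions together, the most similar genes were sought by r of the same deviations over 15167 genes with at least 1 CPM. For NOTCH2 these were ESYT3 (r = 0.754), ATP9B (0.733) and PCCA (0.726). JAG1 was taken for the ligands on that pooled mean, whereas DLL3 was above it in vehicle samples alone (46.3 against 21.8 CPM). For JAG1 they were DNAJB5 (0.908), XBP1 (0.883) and NAB2 (0.875). For HES6 they were H1-10 (0.830), HIP1R (0.825) and CCDC9 (0.808). They are the highest of many values over 20 samples and are given as a description.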

How the data were processed

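RNA-seq of poly(A) RNA from 10 vehicle and 10 nutlin samples of NGP cells was used. The authors quantified the reads with kallisto 0.42.4 on Ensembl 85 transcripts of GRCh38, named hg38 in the submitters' processing notes. Per the file headers, the deposited values of each of 198968 transcripts are the estimated count (not normalized), the TPM and the effective length in bases, and replicates were not pooled. Of the transcripts, 191106 (96.05%) were matched by identifier to GENCODE release 44 and 7862 were left out. The matched ones held 96.7 to 96.8% of the counts in vehicle samples and 95.7 to 95.9% in nutlin samples.

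Estimated counts were summed per gene and rounded. The 27697 mRNA and lncRNA genes whose counts summed to 1 or more in both conditions were fitted together with edgeR 4.0.16 in R 4.3.3 (quasi-likelihood F-test, TMM, condition as the only term), with Benjamini-Hochberg adjustment over all genes and a 5% FDR. The SE is the absolute LFC divided by the square root of F. Transcripts were fitted likewise. TPM was used for levels, without a test.

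The 10 genes and all lists were chosen with earlier results of these data known. Genes of the lists were named when called, with at least 1 CPM, by the 3 largest absolute LFC. Markers were named by the 2 highest mean CPM, similar genes by the 3 highest r, and transcripts when they held at least 10% of a gene's counts. Results that need 2 further genes of the lists are not reported here. The test of member pairs (100000 resamples, Python 3.11.15, numpy 2.4.6) was added after the data were seen. Alternatives were DESeq2 1.42.0 size factors or test, limma 3.58.1 voom, library sizes alone, the filterByExpr filter (minimum count 10), no filter per condition, an effective length offset, 1% FDR, the replicate number as a block, and leaving out each sample. The fit was tested on simulated data with 200 changed genes, where it recovered 54% of 1.25-fold, 88% of 1.5-fold, 98% of 2-fold and 100% of 4-fold changes among 27274 genes. The changed genes were drawn from those above 1 CPM, whereas NOTCH3 had 0.502 CPM in vehicle samples. In the real data 58.8% of genes were called, far more than were changed in the simulation, so these rates need not hold there.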

Additional observations from a re-analysis of the deposited data

Results flagged for a closer look

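JAG1 in vehicle replicate 10, at 24.9 CPM, stood apart from the other vehicle samples. The next highest vehicle sample had 22.7 CPM, and the gap was 0.505 of the group's range, above the critical value of 0.466 for 10 samples. It was the 1 sample that stood apart in 18 groups examined (9 genes in 2 conditions), and chance flags about 1 group in 20. Without vehicle replicate 10 the LFC of JAG1 was 1.83, against 1.78 with it.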

How the results depend on the processing

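The calls of NOTCH2, NOTCH3, JAG1, JAG2, HES1, HES6 and HEY1 kept their direction and their side of the threshold in the 11 alternatives and in the 20 fits without 1 sample. The number of members called higher was 6 to 8 over the alternatives and 6 to 7 without 1 sample, and that called lower was 1 in each. DLL1 passed the threshold with DESeq2 size factors, library sizes alone, DESeq2, filterByExpr, no filter per condition, the effective length offset, and unmatched transcripts counted in the library sizes, the last chosen after seeing the data. Its edgeR, DESeq2 or limma adjusted p was 0.00338 to 0.293 over the 11 alternatives. The LFC of DLL3 turned positive with library sizes alone (0.12) and with filterByExpr (0.00396). The cause was not tested.

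Of the other pathway genes, 26 to 35 were called higher and 21 to 30 lower over the alternatives, and 27 to 31 each without 1 sample. The member transcripts called higher were 8 with filterByExpr, which tests fewer low transcripts, instead of 13. Fitting the replicate number as a replicate block, over the 16 samples with a shared number, gave 8 member transcripts called higher and 0 lower, instead of 13 and 1 in all 20 samples. The same 16 samples without the block, a fit chosen after seeing the data, also gave 8 and 0. The block gave 6 member genes higher and 1 lower, as without it, and 14276 genes called, against 14992 in the same 16 samples without the block. Over genes with at least 1 CPM, same-numbered samples had correlations of −0.0477 to 0.0773, and 1 of 8 correlated best with its own number. For HES1, HES6, HEY1, JAG1 and DLL1 the edgeR adjusted p was lower with the block than in the same 16 samples without it. That of HEY1 was 0.00156 with the block against 0.0192 without it. For NOTCH2, NOTCH3, JAG2 and DLL3 the edgeR adjusted p was higher with the block. A correlation over many genes cannot show whether same-numbered samples share more than a number for single genes. Depth limits NOTCH3, with 2.40 to 14.6 counts per vehicle sample. In simulated data with 200 changed transcripts above 1 CPM, 42% of 2-fold and 70% of 4-fold changes were recovered among 128027 transcripts. These rates have the same limits as those for genes.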
